A study of Mus musculus with 21 samples.

Results

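The 45 genes followed here encode subunits of the NuRD, BAF, ISWI, INO80 and PRC2 chromatin complexes and were measured in mouse embryonic hearts depleted of CHD4 or keeping it. The members were 12 NuRD, 17 BAF, 6 ISWI, 5 INO80 and 5 PRC2 genes chosen by name, CHD proteins not among them, out of 24509 genes in the tables. All 45 were found in both tables and all passed the filter on low values at both stages. The null hearts carried recombined Chd4(Δflox/Δflox) alleles and the control hearts unrecombined Chd4(flox/flox) alleles, both on the CD1 strain. At embryonic day (E) 9.5 there were 5 null and 5 flox libraries, and at E10.5 there were 3 null and 3 flox libraries. CHD4 binding was mapped in wild-type CD1 hearts at E10.0 by chromatin immunoprecipitation, with 3 peak lists from what the series text counts as 2 biological and 3 technical replicates. The sources used here name no Cre driver, and whether a library held 1 heart or several is not stated.

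These complexes open, close or mark nucleosomes. NuRD joins the remodelling ATPase CHD4 to histone deacetylases, BAF (the mammalian SWI/SNF complex) slides and evicts nucleosomes, ISWI complexes space them, and the INO80 family exchanges the histone variant H2A.Z. PRC2 methylates histone H3 at the lysine that marks silenced developmental genes. Several subunits are encoded by paralogs that take the same seat in a complex, and in mouse heart development the BAF subunits Smarca4 and Smarcd3 and the PRC2 enzyme Ezh2 are known to be needed, as is dpf3 for muscle in zebrafish.

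Chd4, the gene that was targeted, was at 48.8, 46.9, 45.4, 40.7 and 46.9 RPKM (reads per kilobase of gene per 1000000 reads) in null hearts at E9.5, against 91.4, 92.3, 94.6, 91.2 and 92.7 RPKM in flox hearts. The null libraries all lay below the flox ones, and the log2 difference of -1.01 passed (SE 0.0524, limma adjusted p = 1.69e-06). At E10.5 it was at 48.2, 57.4 and 52.5 RPKM in null hearts, against 67.2, 74.6 and 91.1 RPKM in flox hearts, a difference of -0.55 that did not pass over all genes (adjusted p = 0.116). The authors' deposited table lists Chd4 at E10.5 with a log2 ratio of control over null of 0.50 (adjusted p = 0.022), which is also lower in null. The values cover the whole gene, and the labels do not say which exons were removed. Library depth was 17.1 to 20.1 M reads in null and 19.6 to 23.5 M in flox hearts at E9.5, and 18 to 18.9 M in null and 17.3 to 18 M in flox hearts at E10.5. Markers of heart muscle were abundant in every library (summed level 8210 to 9800 RPKM in null and 10700 to 11900 RPKM in flox hearts at E9.5), and 3 of their 8 fell. Erythroid markers, from blood, summed to 27800 to 75100 RPKM in null and 11000 to 28000 RPKM in flox hearts at E9.5, where 10 of 11 rose. Proliferation markers summed to 661 to 727 RPKM in null and 617 to 718 RPKM in flox hearts at E9.5, where 3 of 12 rose, and epicardial markers summed to 327 to 363 RPKM in null and 239 to 286 RPKM in flox hearts at E10.5, with no overlap, where 1 of 9 rose. The part of proliferation in the results was not tested. At E9.5 the epicardial sums overlapped, at 152 to 454 RPKM in null and 83.6 to 336 RPKM in flox hearts, and 0 of 8 rose. A fit with the mean log2 level of the epicardial markers as a covariate gave 3 rises and 1 fall among the members at E9.5. In that fit 1725 genes of all passed. At E10.5 the erythroid sum was 46500 to 142000 RPKM in null and 24200 to 68000 RPKM in flox hearts, and foregut and liver markers summed to 34.8 to 1440 RPKM in null and 11.2 to 194 RPKM in flox hearts. Xist, a mark of female tissue, was under 1.5 RPKM in 3 null libraries and 1 flox library at E9.5, and in 2 null libraries and 1 flox library at E10.5. In bulk tissue, fewer cells of a type and less RNA per cell cannot be told apart.

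At E9.5, 5 of the 45 subunit genes rose in null hearts, 4 fell and 36 did not pass. The rises were the ISWI ATPases Smarca1 and Smarca5, the BAF ATPase Smarca2, and the BAF subunits Dpf1 and Smarcd2. The falls were the BAF ATPase Smarca4, the BAF subunits Arid1a and Dpf2, and the NuRD scaffold Mta1. No change was large: fitted log2 differences of all 45 ran between -0.45 and 0.44. These 9 of 45 stood beside 17.2% of all 13643 tested genes, and the rises (11.1% of members) and falls (8.89%) beside 6.87% and 10.3% of all genes, so the share is near the background. The null and flox libraries did not overlap for 7 members, the 5 that rose above (5.50% of all genes) and Arid1a and Dpf2 below (8.57% of all genes). Without null replicate 1 the counts were 6 rises and 8 falls (2773 genes in all), with Mbd2, Smarcb1, Smarcd3, Dpf3 and Ruvbl2 passing too. Each other library left out gave fewer falls than the 4 of the main fit and no more rises than its 5. Without null replicate 5, for instance, there were 4 rises and 1 fall (1537 genes in all). Dpf3 also passed without flox replicate 4. The members' median log2 difference was -0.05, beside -0.04 over all genes.

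The levels of the red cell markers moved with the genotype. With the mean of log2(RPKM + 0.5) over the erythroid markers as a covariate, none of the 45 passed (73 genes of all passed). In that fit all 9 kept their sign, with 0.5 to 1.12 times the log2 difference, 1.74 to 1.84 times the SE, and adjusted p between 0.0885 and 0.871. With the Xist level as a covariate 3 members still rose (Smarca1, Dpf1 and Smarcd2) and 0 fell.

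**Figure D1:**
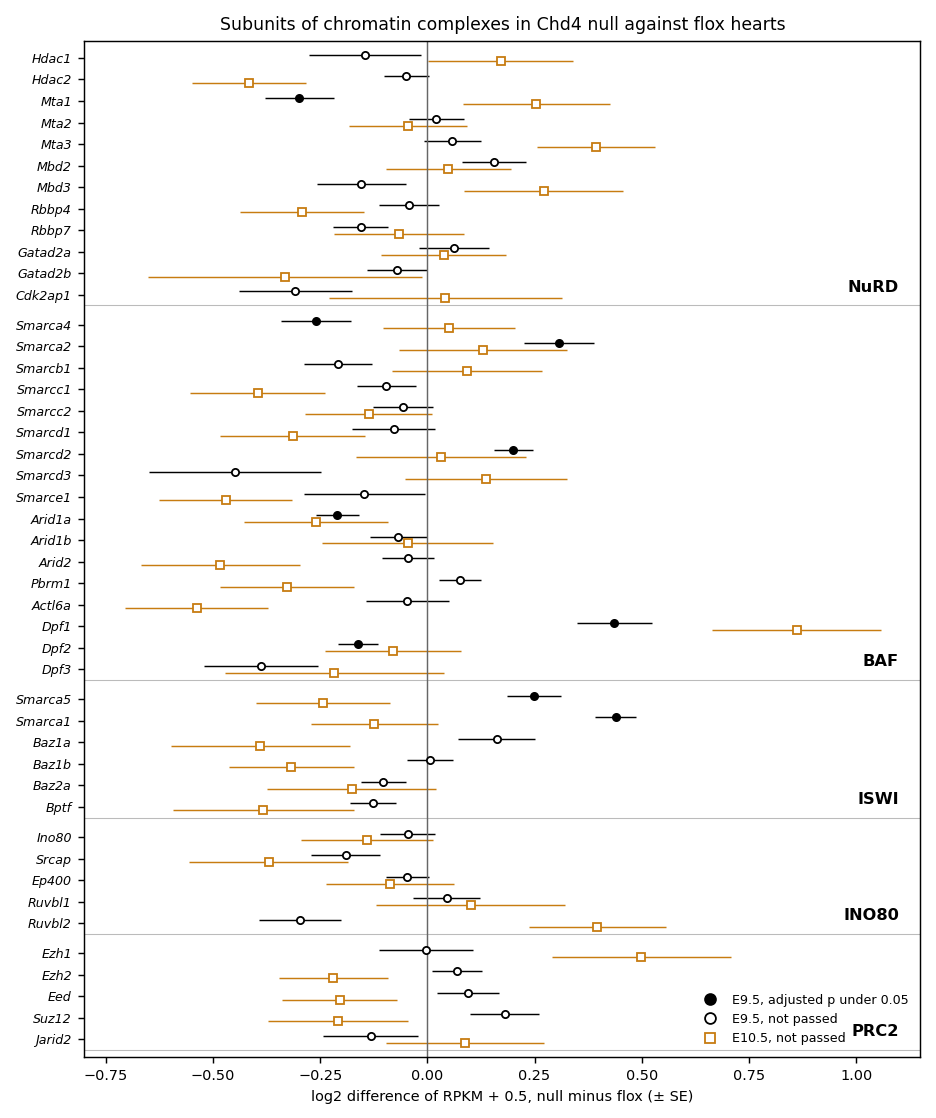
Log2 difference of RPKM + 0.5, null minus flox, on the horizontal axis for each of the 45 subunit genes, grouped by complex, at E9.5 (black circles) and E10.5 (orange squares), with bars of 1 SE. Filled symbols passed an adjusted p of 0.05: 5 genes on the right and 4 on the left of 0 at E9.5, and none at E10.5.

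The genes were well expressed in both genotypes. Their median level at E9.5 was 20.1 RPKM in null and 21.0 RPKM in flox hearts, beside 8.79 and 9.02 RPKM over all tested genes, and 34 of 45 were above 10 RPKM in flox hearts. Rbbp7, a histone chaperone of NuRD and PRC2, was the highest, at 102, 101, 99.3, 115 and 102 RPKM in null hearts, against 116, 105, 118, 130 and 110 RPKM in flox hearts; the groups overlapped. Cdk2ap1, a small NuRD subunit, was the lowest, at 1.02, 0.941, 1.32, 0.73 and 0.766 RPKM in null hearts, against 1.61, 1.37, 1.14, 1.26 and 1.08 RPKM in flox hearts. It also overlapped, and it rested on 17 to 49 reads per library over both stages. Some paralogs stood far apart in measured level: Hdac2 averaged 80.2 RPKM in null and 82.9 RPKM in flox hearts, and Hdac1 6.12 and 6.84 RPKM. RefSeq names a processed copy of Hdac1, so its level is uncertain by the reads the copy shares.

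**Figure D2:**
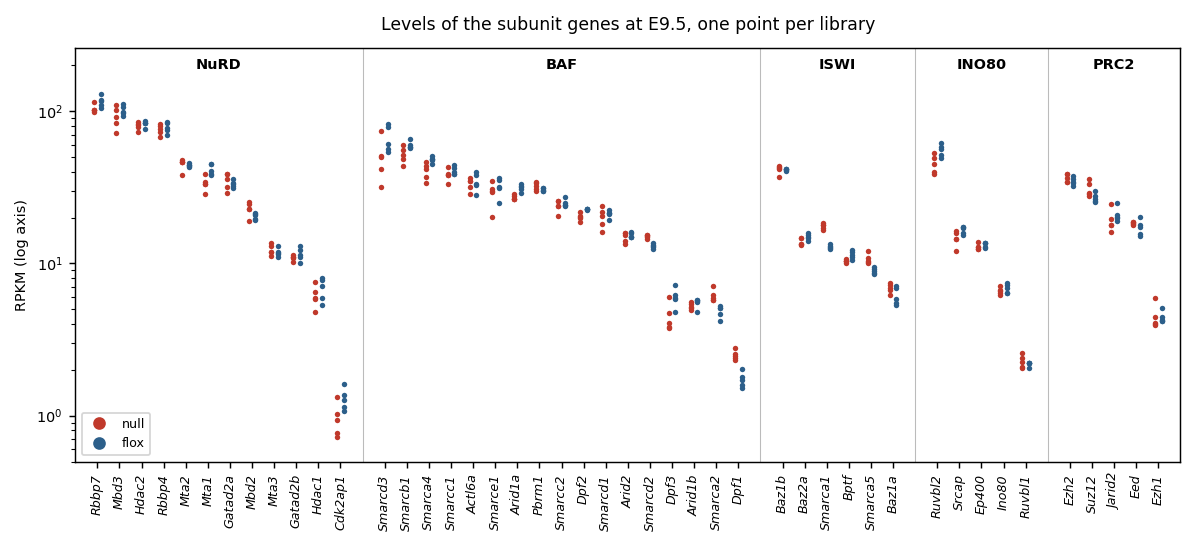
RPKM of each subunit gene at E9.5 on a log axis, one point per library, null to the left of flox, in order of the flox mean within each complex. Levels span from about 1 RPKM (Cdk2ap1) to over 100 RPKM (Rbbp7), and for most genes the points of both genotypes overlap.

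Both ISWI ATPases, which supply the motor of the nucleosome-spacing complexes, were higher in null hearts at E9.5. Smarca1 (SNF2L) was at 18.5, 16.7, 17.2, 17.9 and 18 RPKM in null hearts, against 12.7, 12.8, 13.4, 12.4 and 13.1 RPKM in flox hearts. The groups did not overlap, and Smarca1 rose by 0.44 (SE 0.0479, adjusted p = 0.000269). Smarca5 (SNF2H) was at 10.3, 10.1, 10.9, 10.2 and 12.1 RPKM in null hearts, against 8.6, 8.9, 9.43, 8.48 and 9.16 RPKM in flox hearts. It rose by 0.25 (SE 0.063, adjusted p = 0.0212), again with no overlap. Without null replicate 3 or flox replicate 1 Smarca5 missed the threshold (adjusted p up to 0.0538), while Smarca1 passed whichever library was left out. RefSeq names a processed copy, Smarca5-ps, so reads of Smarca5 are uncertain to the extent the authors' counting shared them.

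The promoters of this pair are shown because their CHD4 peaks differ: each run spans 250 bases before to 50 after the RefSeq start (build GRCm38.p6), 5′ to 3′ on the gene's strand, with capitals for bases inside a peak that all 3 lists share. The interval is that of the first list, since those of the other lists are mostly narrower and need not reach these bases, as in Smarca5. Smarca1 lies at chrX:47892564-47892863 (- strand) and Smarca5 at chr8:80739410-80739709 (- strand).
Smarca1: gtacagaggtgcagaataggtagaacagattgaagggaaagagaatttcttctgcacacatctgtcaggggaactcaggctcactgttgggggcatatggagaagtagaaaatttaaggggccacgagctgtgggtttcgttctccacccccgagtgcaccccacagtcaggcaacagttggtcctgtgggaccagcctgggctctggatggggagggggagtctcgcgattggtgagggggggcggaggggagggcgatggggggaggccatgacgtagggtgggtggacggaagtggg
Smarca5: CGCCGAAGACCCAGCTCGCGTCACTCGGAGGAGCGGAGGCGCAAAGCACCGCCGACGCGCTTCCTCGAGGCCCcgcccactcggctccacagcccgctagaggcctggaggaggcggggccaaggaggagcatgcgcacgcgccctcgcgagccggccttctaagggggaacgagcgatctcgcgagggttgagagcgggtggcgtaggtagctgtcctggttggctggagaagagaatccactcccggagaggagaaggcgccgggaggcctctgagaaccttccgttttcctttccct
No base of the Smarca1 run was in a shared peak, and none of the 3 lists held a peak within 1 kb of its start. In Smarca5 the first 73 bases of the run were inside one. The 300 bases hold 9 CpG in Smarca1 and 32 in Smarca5, beside a median of 21 over the promoters of tested genes.

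The partner subunits that steer ISWI motors did not pass at E9.5. Baz1b (WSTF), the highest of them, was at 42.7, 41.8, 42.2, 36.7 and 43.9 RPKM in null hearts, against 40.4, 41.5, 41, 41.4 and 41.6 RPKM in flox hearts. Baz1a (ACF1), the lowest, was at 6.86, 7.21, 6.19, 6.73 and 7.43 RPKM in null hearts, against 5.8, 5.53, 7.1, 5.32 and 6.91 RPKM in flox hearts. Both overlapped between genotypes. Baz2a, of the nucleolar remodelling complex, and Bptf, of the NURF complex, differed by -0.10 and -0.13.

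The motor subunits of BAF moved in opposite directions at E9.5. Smarca2 (BRM) was at 5.73, 5.73, 5.93, 7.07 and 6.16 RPKM in null hearts, against 4.63, 5.23, 4.19, 5.13 and 5.08 RPKM in flox hearts. It rose by 0.31 (SE 0.0811, adjusted p = 0.0256) with no overlap. Smarca4 (BRG1), the more abundant motor of these hearts, was at 46.2, 43.4, 41.8, 33.7 and 37 RPKM in null hearts, against 48, 48.7, 50.6, 45.3 and 48.6 RPKM in flox hearts. It fell by 0.26 (SE 0.081, adjusted p = 0.0491), with null replicate 1 above the lowest flox library. The call on Smarca4 sat at the threshold and was kept in 1 of 10 fits that left out a library, the one without null replicate 1. Smarca2 missed it without null replicate 5, flox replicate 1 or flox replicate 3 (adjusted p up to 0.0618). Over 13 alternative settings of pseudocount, filter, scaling, model or covariate, Smarca4 kept its call in 6 and Smarca2 in 10. Smarca4 missed it with median scaling and quantile normalization, among others. Smarca2 overlaps a neighbouring gene, so its level is uncertain by the reads these share.

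The promoters of the motor pair, drawn by the same rule, lie at chr19:26604910-26605209 (+ strand) for Smarca2 and chr9:21615919-21616218 (+ strand) for Smarca4.
Smarca2: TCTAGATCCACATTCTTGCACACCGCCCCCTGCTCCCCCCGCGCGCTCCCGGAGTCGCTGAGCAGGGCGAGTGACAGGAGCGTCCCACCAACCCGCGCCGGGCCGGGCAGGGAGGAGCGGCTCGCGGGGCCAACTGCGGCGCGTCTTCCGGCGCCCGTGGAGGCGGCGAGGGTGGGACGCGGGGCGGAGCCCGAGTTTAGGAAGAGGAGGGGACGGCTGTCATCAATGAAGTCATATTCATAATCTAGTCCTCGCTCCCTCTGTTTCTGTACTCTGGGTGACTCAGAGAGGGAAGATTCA
Smarca4: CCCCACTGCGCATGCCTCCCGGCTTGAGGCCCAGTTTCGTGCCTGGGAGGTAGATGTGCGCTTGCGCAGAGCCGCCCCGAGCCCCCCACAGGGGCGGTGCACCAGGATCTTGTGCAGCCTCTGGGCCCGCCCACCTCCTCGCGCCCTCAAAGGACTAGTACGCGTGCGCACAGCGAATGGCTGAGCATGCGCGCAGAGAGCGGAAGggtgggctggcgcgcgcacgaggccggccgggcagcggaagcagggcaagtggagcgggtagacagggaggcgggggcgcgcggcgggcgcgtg
All 300 bases of the Smarca2 run and the first 206 bases of the Smarca4 run were inside a shared CHD4 peak. They hold 29 and 33 CpG.

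Among the PHD-finger subunits, which read modified histones, Dpf1 and Dpf2 also moved apart. Dpf1 (BAF45B, known from neuronal BAF) was at 2.8, 2.48, 2.31, 2.38 and 2.53 RPKM in null hearts, against 1.79, 1.71, 2.02, 1.59 and 1.51 RPKM in flox hearts. It rose by 0.44 (SE 0.0876, adjusted p = 0.00737) with no overlap and on 49 to 140 reads per library over both stages. Dpf2 (BAF45D, the widely expressed form) was at 21.6, 18.7, 20.5, 20.3 and 19.8 RPKM in null hearts, against 22.6, 22.7, 22.8, 22.4 and 22.7 RPKM in flox hearts, where the spread was very small. Dpf2 fell by 0.16 (SE 0.0472, adjusted p = 0.0379), and this call was lost in 8 of 10 fits that left out a library. Those were the fits without null replicate 2, 3 or 5 or any flox replicate (adjusted p up to 0.0849), whereas Dpf1 passed in all 10. Over the 13 alternative settings Dpf2 kept its call in 6 and Dpf1 in 12. Dpf2 missed it with median scaling, quantile normalization and voom, among others. Dpf3 (BAF45C), the form known from heart and skeletal muscle, averaged 4.49 ± 0.949 RPKM in null and 5.99 ± 0.857 RPKM in flox hearts (SD, n = 5 each). Its difference of -0.39 missed the threshold (adjusted p = 0.067), although the authors' deposited table for E9.5 lists it.

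The promoters of Dpf1 (chr7:29303755-29304054 (+ strand)) and Dpf2 (chr19:5912822-5913121 (- strand)) follow, with capitals again for bases in a shared CHD4 peak.
Dpf1: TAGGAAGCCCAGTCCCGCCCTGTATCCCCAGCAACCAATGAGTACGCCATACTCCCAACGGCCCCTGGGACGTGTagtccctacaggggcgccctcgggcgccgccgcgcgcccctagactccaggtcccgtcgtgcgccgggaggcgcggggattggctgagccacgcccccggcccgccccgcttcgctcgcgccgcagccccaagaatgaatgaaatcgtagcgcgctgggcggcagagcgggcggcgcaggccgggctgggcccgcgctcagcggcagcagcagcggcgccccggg
Dpf2: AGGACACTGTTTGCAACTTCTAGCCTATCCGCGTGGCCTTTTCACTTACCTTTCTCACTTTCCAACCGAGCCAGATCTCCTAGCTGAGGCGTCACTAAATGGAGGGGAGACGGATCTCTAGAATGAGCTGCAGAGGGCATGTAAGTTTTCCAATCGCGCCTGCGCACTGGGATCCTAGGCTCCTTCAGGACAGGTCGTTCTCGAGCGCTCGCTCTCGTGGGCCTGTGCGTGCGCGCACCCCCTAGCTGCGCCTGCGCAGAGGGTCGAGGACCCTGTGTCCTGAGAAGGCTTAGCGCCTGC
In Dpf1 the first 75 bases of the run were in the peak, which ended 176 bp before the start, and in Dpf2 all 300 were. The runs hold 39 and 20 CpG, and both hold CCAAT on one strand or the other (2 matches in Dpf1 and 1 in Dpf2), as did 42.7% of promoters of tested genes.

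Of the remaining BAF genes 2 passed. Smarcd2 (BAF60B) was at 14.5, 15.4, 15.4, 14.9 and 15.1 RPKM in null hearts, against 13.2, 13.6, 12.9, 13 and 12.5 RPKM in flox hearts. It rose by 0.20 (SE 0.0458, adjusted p = 0.0136) with no overlap. Arid1a (BAF250A), the DNA-binding subunit of the canonical complex, was at 28.4, 26.5, 27.9, 26.3 and 26.5 RPKM in null hearts, against 29, 30.9, 31.7, 33.3 and 32.3 RPKM in flox hearts. It fell by 0.21 (SE 0.05, adjusted p = 0.0165), with no overlap, and both genes passed whichever library was left out. Over the 13 alternative settings Smarcd2 kept its call in 12 and Arid1a in 10. Arid1a missed it with quantile normalization and with the erythroid or Xist level as a covariate. Smarcd3 (BAF60C), the cardiac form of this subunit and the highest BAF gene in flox hearts, was at 74, 49.9, 50.6, 31.8 and 41.8 RPKM in null hearts, against 81.9, 56.8, 78.7, 53.7 and 60.8 RPKM in flox hearts. Its difference of -0.45 was the farthest below 0 of the 45, but the libraries varied widely and overlapped (SE 0.201, adjusted p = 0.149). Smarcd3 is known for its high level in heart muscle, and the summed cardiomyocyte markers were lower in null hearts too, with no overlap; their part in the value was not tested. The other core subunits Smarcb1, Smarcc1, Smarcc2, Smarcd1 and Smarce1, the ARID subunits Arid1b and Arid2, the bromodomain subunit Pbrm1 and the actin-related Actl6a did not pass and overlapped between genotypes.

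**Figure D3:**
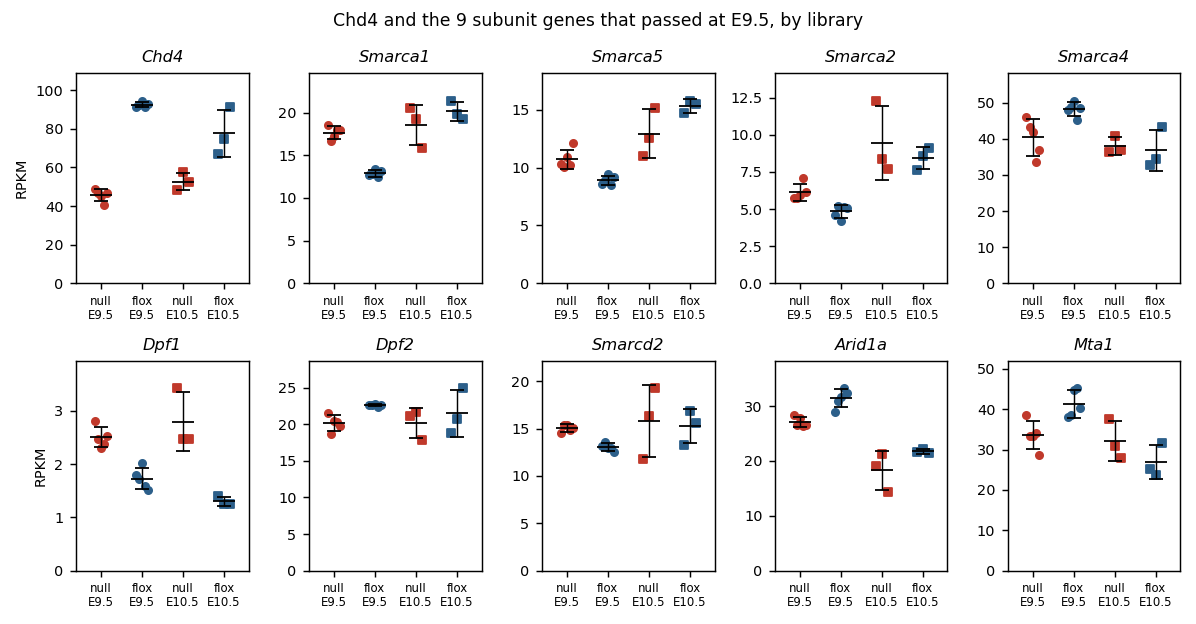
RPKM by library for Chd4 and the 9 subunit genes that passed at E9.5, with null to the left of flox at each stage; points are libraries (5 and 5 at E9.5, 3 and 3 at E10.5) and bars the mean ± SD. Smarca1, Smarca5, Smarca2, Dpf1 and Smarcd2 show null libraries wholly above flox at E9.5, and of these Dpf1 alone does so at E10.5.

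In NuRD 1 of 12 genes fell and 0 rose at E9.5. Mta1, a scaffold that holds the deacetylases, was at 38.6, 33.3, 33.3, 34.1 and 28.7 RPKM in null hearts, against 38, 38.5, 44.7, 45.3 and 40.4 RPKM in flox hearts. Null replicate 1 lay inside the flox range, and Mta1 fell by 0.30 (SE 0.0807, adjusted p = 0.028). The call was kept in 4 of 10 fits that left out a library and missed the threshold without null replicate 2, 3 or 5 or flox replicate 3, 4 or 5 (adjusted p up to 0.0667). It was kept in 8 of the 13 alternative settings. The paralogs Mta2 and Mta3 differed by 0.02 and 0.06. The deacetylases Hdac1 and Hdac2 (-0.15 and -0.05), the methyl-CpG-binding-domain subunits Mbd2 and Mbd3 (0.16 and -0.15), the chaperones Rbbp4 and Rbbp7 (-0.04 and -0.16) and the bridging subunits Gatad2a and Gatad2b (0.06 and -0.07) did not pass. Hdac1 has a named processed copy in RefSeq, and Rbbp4 and Rbbp7 overlap neighbouring genes, so their levels are uncertain by the reads these share. The same holds for Smarca2, Smarcd3, Pbrm1 and Ruvbl2, which also overlap neighbouring genes.

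None of the 5 INO80-family genes and none of the 5 PRC2 genes passed at E9.5 by limma or by voom, with 2 and 1 of them at an unadjusted p under 0.05, beside 32.4% of all tested genes. Ruvbl2, an AAA+ ATPase shared by the INO80, SRCAP and TIP60 complexes and the highest of the family, was at 52.8, 49, 39.6, 45.3 and 38.6 RPKM in null hearts, against 56.3, 48.9, 57.9, 61.8 and 51.5 RPKM in flox hearts. Its difference of -0.30 came close to the threshold (SE 0.096, adjusted p = 0.0554), and it passed without null replicate 1 (adjusted p = 0.0212). Its partner Ruvbl1, the lowest, was at 2.07, 2.1, 2.24, 2.6 and 2.38 RPKM in null hearts, against 2.21, 2.07, 2.23, 2.22 and 2.22 RPKM in flox hearts. The groups overlapped, with null replicates 3, 4 and 5 above the highest flox library. The large ATPases Ino80, Srcap and Ep400 differed by -0.05, -0.19 and -0.05.

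Of PRC2, Ezh2, the methyltransferase of dividing cells and the highest of the 5, was at 38.9, 34, 36.2, 34.2 and 38.7 RPKM in null hearts, against 35.7, 32.3, 37.4, 33.8 and 34.2 RPKM in flox hearts. Ezh1, its paralog and the lowest, was at 4.04, 4.48, 3.98, 5.95 and 3.92 RPKM in null hearts, against 4.46, 4.18, 4.19, 5.13 and 4.26 RPKM in flox hearts. Both overlapped. The core subunits Eed and Suz12 differed by 0.09 and 0.18, and the accessory Jarid2, whose loss is known to disturb heart growth in mice, by -0.13.

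At E10.5 none of the 45 genes passed by limma, where 292 of 14100 tested genes did (2.07%; 1.77% rose and 0.305% fell), and none passed by voom on the recovered reads. At an unadjusted p under 0.05 there were 9 (4 higher and 5 lower in null hearts), beside 22.9% of all genes. Fitted differences ran from -0.54 (Actl6a) to 0.86 (Dpf1), with a median of -0.12 beside -0.04 over all genes. With 3 libraries a genotype, null and flox did not overlap for 15 members, 4 above (Mta3, Dpf1, Ruvbl2 and Ezh1) and 11 below (Hdac2, Rbbp4, Smarcc1, Smarce1, Arid1a, Arid2, Actl6a, Baz1b, Bptf, Ezh2 and Eed). These are 8.89% and 24.4% of members, beside 13.9% and 17.4% of all genes.

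Dpf1 was the member nearest to the threshold at E10.5. It was at 3.43, 2.48 and 2.47 RPKM in null hearts, against 1.4, 1.25 and 1.25 RPKM in flox hearts, with no overlap (log2 difference 0.86, SE 0.197, adjusted p = 0.0715). The authors' deposited table lists Dpf1 at E10.5, the 1 member among its 1357 genes, with a log2 ratio of control over null of -0.93 (adjusted p = 0.0106), which is also higher in null. Dpf2 was at 21.1, 21.7 and 17.9 RPKM in null hearts, against 18.8, 20.7 and 25 RPKM in flox hearts, and overlapped. Of the other members that passed at E9.5, Arid1a was at 19.1, 21.3 and 14.4 RPKM in null hearts at E10.5, against 21.6, 22.2 and 21.4 RPKM in flox hearts, all below but not passing (adjusted p = 0.374). The remaining 6 (Smarca1, Smarca2, Smarca4, Smarca5, Smarcd2 and Mta1) overlapped between genotypes.

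The null-minus-flox difference itself differed between stages for 3 members, Smarca1, Ruvbl2 and Hdac2 (an interaction term in 1 fit of both stages; 3.82% of 13886 genes passed). Smarca1 was at 20.5, 19.2 and 15.9 RPKM in null hearts at E10.5, against 21.4, 19.8 and 19.3 RPKM in flox hearts, so its excess of E9.5 was not seen there (difference E10.5 minus E9.5 -0.56, SE 0.113, adjusted p = 0.0243). Ruvbl2 was at 40, 46.7 and 53 RPKM in null hearts at E10.5, against 31.2, 35.1 and 39.3 RPKM in flox hearts, the opposite side from E9.5 (difference 0.69, SE 0.171, adjusted p = 0.0389). Hdac2, the deacetylase of higher measured level, was at 90.5, 94.8 and 100 RPKM in null hearts at E10.5. In flox hearts of that stage it was at 128, 123 and 130 RPKM. At E9.5 it had been at 82.9, 78.7, 80.9, 73.5 and 84.8 RPKM in null hearts, against 83.5, 84.2, 86.7, 76.8 and 83.4 RPKM in flox hearts (difference -0.37, SE 0.0965, adjusted p = 0.0468). Smarca5 just missed (difference -0.49, adjusted p = 0.0516), with 11, 12.6 and 15.2 RPKM in null hearts at E10.5, against 14.7, 15.8 and 15.5 RPKM in flox hearts. Single libraries decided these calls: 0 members passed without E9.5 null replicate 3 or 5 or E10.5 flox replicate 1 or 2, 1 passed without any one of E9.5 flox replicates 1 to 4, and 9 passed without E10.5 null replicate 2. Hdac2 kept its call in 3 of the 16 fits that left out a library, Ruvbl2 in 7 and Smarca1 in 12.

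For the 9 members that passed at E9.5, the levels in E10.5 flox hearts are given beside both E9.5 groups; the E9.5 flox libraries enter both differences, so no likeness between them is read from the values. Smarca1 averaged 17.7 RPKM in E9.5 null hearts, 12.9 RPKM in E9.5 flox hearts and 20.1 RPKM in E10.5 flox hearts. Smarca5 averaged 10.7, 8.92 and 15.3 RPKM in the same 3 groups, and Smarca2 6.12, 4.85 and 8.44 RPKM. Smarca4 averaged 40.4, 48.2 and 36.9 RPKM, Arid1a 27.1, 31.4 and 21.7 RPKM, and Mta1 33.6, 41.4 and 26.9 RPKM. Smarcd2 averaged 15.1, 13.0 and 15.2 RPKM, Dpf2 20.2, 22.6 and 21.5 RPKM, and Dpf1 2.50, 1.72 and 1.30 RPKM. The tables of the stages were made separately and from 200 ng (E9.5) and 300 ng (E10.5) of RNA, and the stages were not tested against each other.

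Within-library ratios give the balance of related subunits without a scaling between libraries. Not all of the pairs are alternatives for one place: Ruvbl1 and Ruvbl2 assemble together, and Arid1a and Arid2 belong to different BAF assemblies. Of 18 pairs, 3 had ratios that did not overlap between genotypes at E9.5, the pairs whose promoters are printed above. Of single tested genes, 14.1% did not overlap at E9.5 in either direction, and a share over other gene pairs was not computed. The log2 ratio of Smarca2 to Smarca4 was -2.91, -2.82, -2.72, -2.17 and -2.49 in null hearts, against -3.24, -3.10, -3.45, -3.02 and -3.14 in flox hearts, a shift of 0.57 towards Smarca2. That of Dpf1 to Dpf2 was -2.74, -2.69, -2.90, -2.85 and -2.75 in null hearts, against -3.34, -3.39, -3.21, -3.46 and -3.53 in flox hearts, a shift of 0.60 towards Dpf1. That of Smarca1 to Smarca5 was 0.82, 0.71, 0.63, 0.78 and 0.55 in null hearts, against 0.54, 0.50, 0.49, 0.52 and 0.49 in flox hearts, a shift of 0.19. Each has an exact two-sided permutation p of 0.00794, the smallest that 5 against 5 can give, and an adjusted p of 0.0476 over the 18 pairs. The pairs use the same libraries as the single-gene fits and were chosen with earlier results known.

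At E10.5, 7 of the 18 ratios did not overlap, each at an exact permutation p of 0.1, the smallest that 3 against 3 can give, so none could pass. Of single tested genes, 31.3% did not overlap at E10.5 in either direction. Dpf1 to Dpf2 was the 1 pair apart in the same direction at both stages, with -2.46, -2.90 and -2.63 in null hearts, against -3.35, -3.60 and -3.86 in flox hearts (shift 0.94). Hdac1 to Hdac2 shifted by 0.59, Ezh1 to Ezh2 by 0.72, Mta3 to Mta2 by 0.44, Ruvbl2 to Ruvbl1 by 0.30 and Smarcc2 to Smarcc1 by 0.26, while Arid2 to Arid1a differed by -0.22. Smarca2 to Smarca4 and Smarca1 to Smarca5 overlapped at this stage, with differences of 0.08 and 0.12.

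**Figure D4:**
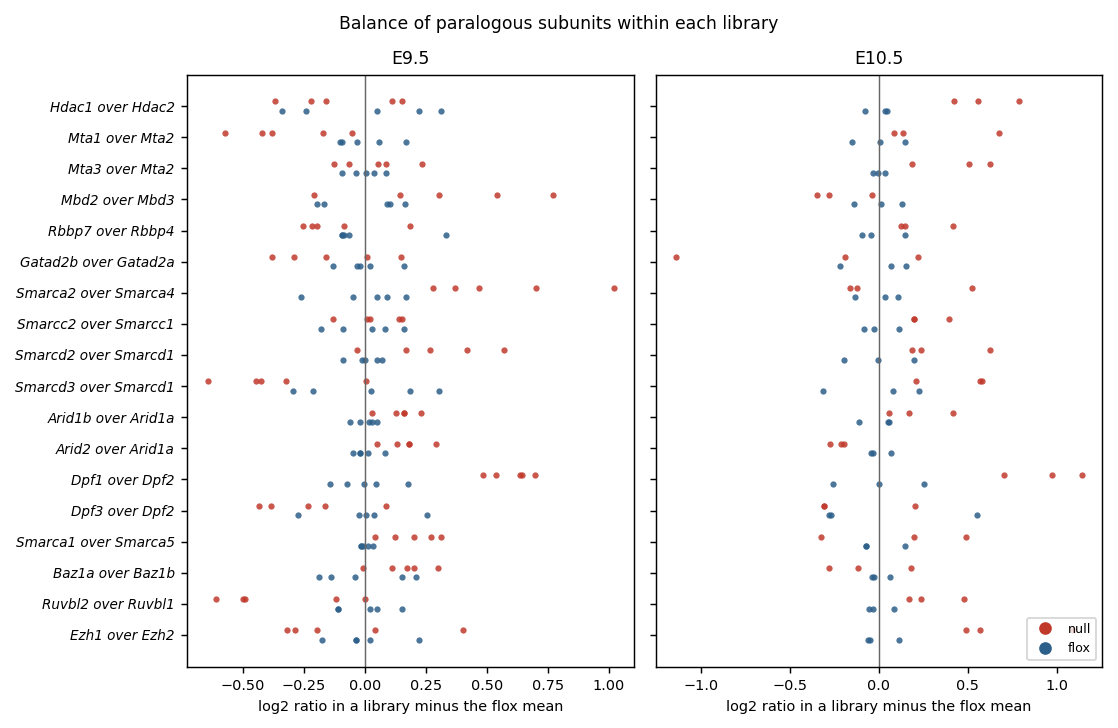
Log2 ratio of RPKM + 0.5 of paired subunits in each library, minus the flox mean of the stage, for 18 pairs at E9.5 and E10.5; null points (red) lie above flox points (blue) in each row. At E9.5 Smarca2 over Smarca4, Dpf1 over Dpf2 and Smarca1 over Smarca5 are fully apart, and Dpf1 over Dpf2 is apart at E10.5 too.

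Other subunits of the same complexes, listed from general knowledge, were read alongside. Of 46 tested besides Chd4, 2 rose and 3 fell at E9.5 (10.9%, under the 17.2% of all genes), and 41 did not pass. At E10.5, 0 passed by limma, beside 2.07% of all genes. At that stage 6 (13.0%) were at an unadjusted p under 0.05, beside 22.9% of all genes. Chd3, the alternative motor of NuRD, was at 27.7, 27.2, 29.3, 22.9 and 24.4 RPKM in null hearts at E9.5, against 14.3, 15.8, 15.2, 14.6 and 14 RPKM in flox hearts. It rose by 0.81 (SE 0.0715, adjusted p = 7.39e-05), more than any of the 45 members. The third motor, Chd5, was under the filter at both stages and was not tested. It was at a mean of 0.784 RPKM in null and 0.0577 RPKM in flox hearts at E9.5, and 0.828 and 0.0538 RPKM at E10.5. At these low levels its null libraries lay above the flox ones at both stages. Phf19, an accessory PRC2 subunit, was at 2.34, 3.05, 2.64, 2.5 and 2.4 RPKM in null hearts, against 1.54, 1.74, 0.819, 1.56 and 1.21 RPKM in flox hearts, and rose by 0.74 with no overlap (adjusted p = 0.00592). The 3 falls were among the 25 tested genes of the INO80 family, where 10.3% of all genes fell. Ino80e was at 29.9, 25.5, 24.5, 20.9 and 24.3 RPKM in null hearts at E9.5, against 37.4, 35.6, 34.8, 33.5 and 31.7 RPKM in flox hearts, and fell by 0.47 with no overlap (adjusted p = 0.00464). Vps72 was at 29, 26.3, 25.1, 18.9 and 22.3 RPKM in null hearts, against 35.1, 31.4, 33.2, 29.3 and 28.6 RPKM in flox hearts, and fell by 0.38 (adjusted p = 0.0331). Znhit1 was at 19.5, 21.5, 16.9, 17.5 and 17.2 RPKM in null hearts, against 24.4, 22, 22, 23.7 and 21.3 RPKM in flox hearts, and fell by 0.29 (adjusted p = 0.022). Vps72 and Znhit1 overlapped between genotypes. Both belong to the SRCAP branch that loads H2A.Z. Over the alternative settings and the fits leaving out a library at E9.5, Vps72 kept its call in 14 and lost it in 9. Znhit1 kept its call in 17 and lost it in 6, while Ino80e and Phf19 each kept theirs in 22 and lost it in 1. At E10.5 Phf19 averaged 2.76 ± 0.255 RPKM in null and 1.41 ± 0.107 RPKM in flox hearts (SD, n = 3 each), with no overlap and an adjusted p of 0.0738. Chd3 averaged 22.9 ± 4 RPKM in null and 16.7 ± 1.94 RPKM in flox hearts at that stage (difference 0.44, adjusted p = 0.189). The 3 genes that fell at E9.5 had differences of 0.02 (Ino80e), 0.12 (Vps72) and 0.34 (Znhit1) at E10.5, none passing.

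CHD4 peaks in wild-type hearts covered many of these genes. A peak shared by all 3 lists lay within 1 kb of the RefSeq start for 31 of 39 members with a start in the promoter table (79.5%). Among tested genes it did so for 6080 of 10152 (59.9%). In 23 of the 31 the interval of the first list covered the start itself, while those of the other lists need not reach it. All 5 INO80-family genes had a shared peak within 1 kb, as did 4 of 5 PRC2, 4 of 5 ISWI, 12 of 15 BAF and 6 of 9 NuRD genes. Those without were Mta1, Rbbp7, Cdk2ap1, Smarcb1, Smarcd2, Arid1b, Smarca1 and Eed. The listed start of Smarcd2 (- strand) lies inside its gene, in a run at chr11:106267583-106267882, while the gene ends at 106272998. Its gene edge was therefore not examined as a start, and its gene and flanks held 2 shared peaks. With the gene body and 5 kb on either side counted, 40 of 45 members had a shared peak (88.9%), beside 72.4% of tested genes. In the first list alone, 92.3% of members and 86.4% of tested genes had a peak at the start. The members are also expressed above the typical gene, and their promoters hold a median of 30 CpG, beside 21 over tested genes; the part of level and base composition in the difference was not tested.

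Shared peaks lay both at members that passed and at members that did not. Of the 9 that passed at E9.5, 6 had a shared peak at the listed start (Smarca4, Smarca2, Arid1a, Dpf1, Dpf2 and Smarca5). So did 25 of the 30 with a listed start that did not pass. The authors' own peak scores were highest in all 3 lists at Dpf3 (760, 363 and 326), which carried 11 shared peaks over its gene and flanks. They were low at Dpf1 (32, 45 and 30), beside list medians of 203, 109 and 90 for the 31 members. Arid1a and Arid1b each held 9 shared peaks, though Arid1b had none within 1 kb of its listed start. The lists come from wild-type hearts at E10.0, between the RNA stages, and no input-corrected level was compared here.

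**Figure D5:**
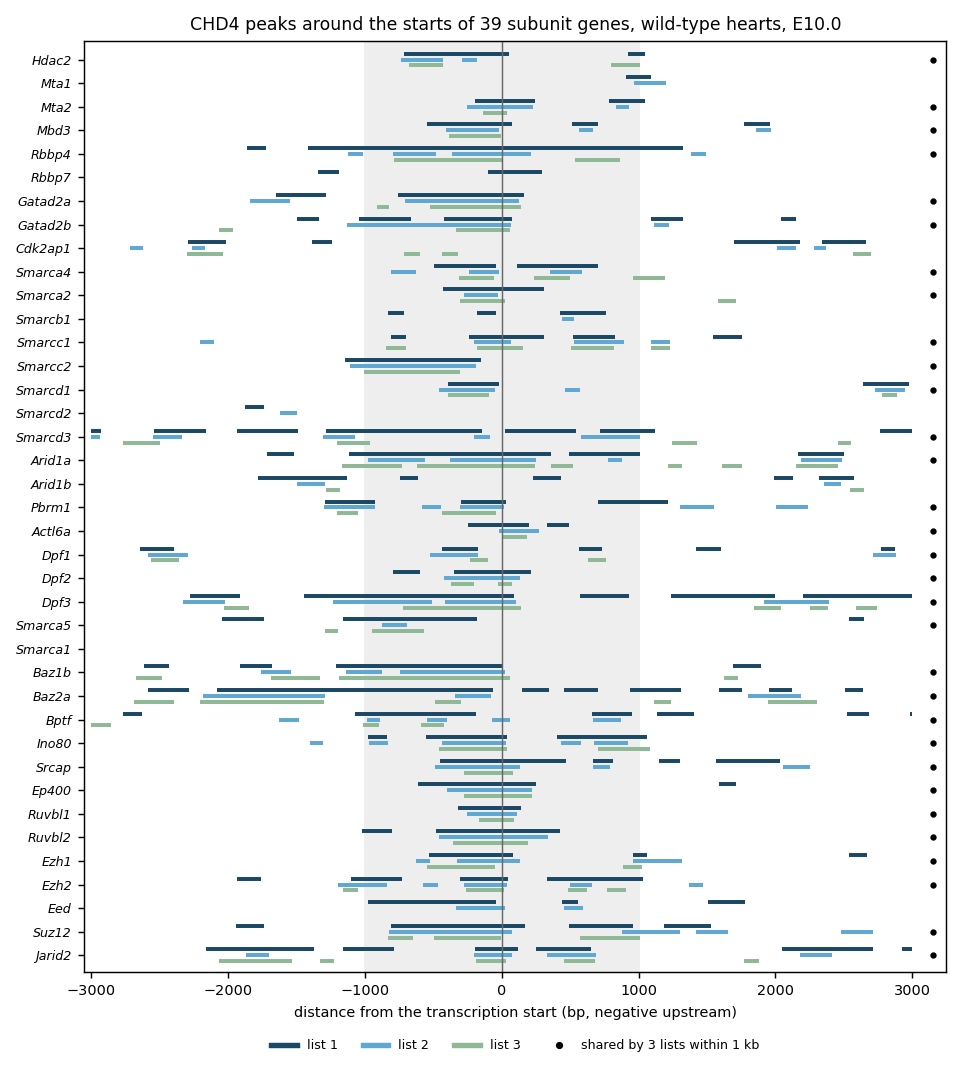
CHD4 peaks of the 3 wild-type lists at E10.0 around the starts of the 39 subunit genes with a listed start, as distance from the start in bp, with the window of 1 kb shaded. Black dots mark the 31 genes with a peak shared by the 3 lists in the window; Smarca1 has no peak in any list over the 3 kb drawn on either side.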

How the data were processed

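Polyadenylated RNA of null and flox hearts was sequenced from stranded libraries, with an RNA input of 200 ng for E9.5 and 300 ng for E10.5, per the labels. The submitters' processing notes name the build mm10, HTSeq 0.6.2 and Bowtie 1.2.0, then DESeq2 1.6.3, MACS2, bedtools 2.25.0 and SAMtools 1.6. The authors deposited RPKM values and gene lengths, which were used unchanged. How their counting treated strand is not stated, so reads of overlapping genes cannot be told apart. Among the members this touches Rbbp4, Rbbp7, Smarcd3, Ruvbl2, Pbrm1 and Smarca2. RPKM times length gave whole reads for 100% of values (within 0.01), which gives the depth of each library. The deposited tables of the authors' comparisons hold a mean signal, a test score, log2 fold changes of control over null, and p-values for listed genes only; the log2 and adjusted p-values alone were used. The peak score is the authors' deposited value, with its scale not stated.

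Differences were fitted with limma 3.58.1 in R 4.3.3 (lmFit, eBayes with a trend, two-sided) on log2(RPKM + 0.5), keeping genes whose mean over the libraries of a stage reached 0.5 RPKM. A gene passed at a Benjamini-Hochberg adjusted p under 0.05 over all tested genes; every adjusted p of a gene is from this fit unless another source is named. A fold change on this scale understates the change of genes near 0.5 RPKM. Libraries are biological replicates per the series text; none held the values of another. Counting error is small beside the spread between libraries except for genes of few reads. The fit was tested on simulated data with known changes.

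Members, lists, pairs and tests were chosen with earlier results of these data known. Values per library are given for Chd4, members called in any comparison, the highest and lowest member of each complex in flox hearts at E9.5, and pairs apart at both stages; of the other subunits, up to 4 per complex of smallest p among those called. Others were named after their values were seen.

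Peaks counted as shared where intervals of the first list overlapped both other lists by at least 1 bp. Starts and promoters come from RefSeq (GRCm38.p6, the assembly of mm10), with an entry for 39 of 45 members (none for Arid2, Baz1a, Hdac1, Mbd2, Mta3 and Smarce1). Of promoter entries, 60.4% had the start at the edge of the RefSeq gene. Smarcd2 and Smarcd3 are among those that did not. Motifs were searched on both strands. Input libraries were not analysed here. Peaks were joined with bedtools 2.31.1, and figures drawn with matplotlib 3.10.9 (pandas 2.3.3, scipy 1.17.1, numpy 2.4.6, Python 3.11.15). Alternatives were other pseudocounts, filters and scalings, voom on the recovered reads, arrayWeights, covariates, a replicate block, other peak rules and each library left out.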

Additional observations from a re-analysis of the deposited data

Results flagged for a closer look

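Among the 90 groups of 5 E9.5 libraries (45 genes in each genotype), 7 held 1 library apart from the rest by Dixon's test, where chance gives about 1 in 20. Null replicate 4 was apart for 3 of them: Mta2 at 37.9 RPKM, where the other null libraries were at 46.0 to 47.8 RPKM, Rbbp7 at 115 RPKM (others 99.3 to 102 RPKM), and Ezh1 at 5.95 RPKM (others 3.92 to 4.48 RPKM). Flox replicate 2 was apart for Smarcc2 at 27.3 RPKM (others 23.9 to 24.9 RPKM) and Ruvbl1 at 2.07 RPKM (others 2.21 to 2.23 RPKM). Flox replicate 1 was apart for Arid1b at 4.83 RPKM (others 5.62 to 5.78 RPKM), and flox replicate 4 for Jarid2 at 25.1 RPKM (others 19.1 to 20.7 RPKM). None of these 7 genes passed at E9.5.

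The null-minus-flox difference changed between E9.5 and E10.5 by -0.56 (log2) for Smarca1, by 0.69 for Ruvbl2 and by -0.37 for Hdac2, by the interaction term of limma. The stages also differ in RNA amount, table and number of libraries, which cannot be told apart from age here.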

How the results depend on the processing

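Pseudocounts of 0.1 and 1 and a filter at a mean of 1 RPKM kept 5 rises and 4 falls among the members at E9.5. Falls numbered 2 without a filter (Arid1a and Dpf2), 1 with median scaling (Arid1a) and 1 with quantile normalization (Mta1). They numbered 2 after the scaling left out erythroid genes and the 10 of highest level (Mta1 and Arid1a), and 3 with voom (Dpf2 lost). With arrayWeights there were 9 (3549 genes, with Rbbp7, Dpf3, Baz2a, Srcap and Ruvbl2 added). In each of these the 5 rises passed. Rises and falls were 0 and 0 with the erythroid level as a covariate (73 genes), 3 and 1 with the epicardium level, and 3 and 0 with Xist (1100 genes). Rises made up 40.0% of all called genes, and 52.5% with median scaling. Leaving out a library gave 3 to 6 rises, 1 to 8 falls and 1537 to 2773 genes. No called value changed sign under any setting run.

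At E10.5 the 292 called genes became 82 without a filter, 86, 101 and 104 with the erythroid, epicardium and Xist covariates, 1426 with arrayWeights, and 62 to 356 without a library. Members that passed stayed at 0 and 0 in these, except with arrayWeights (1 rise, Dpf1, and 3 falls, Hdac2, Smarce1 and Actl6a). The authors' deposited table lists 1357 genes and 1 member higher in null. At E9.5 the authors' table lists 3094 genes and 9 members, 8 of these shared with the limma calls (88.9% of either list). It has Dpf3 and lacks Dpf2. Both come from the same libraries. In the stage difference (531 genes, 3 members), median scaling gave 5 members, quantile normalization 860 genes, and leaving out a library 4 to 1795 genes and 0 to 9 members; voom, covariates and arrayWeights were not run for it. Leaving out a library gave 3 to 6 paralog pairs apart for E9.5 and 8 to 10 apart for E10.5. Taking a library away cannot make groups overlap that were apart, so these counts could not fall and do not measure stability. Members with a shared peak at the start numbered 27 with the higher-scoring part of the peaks (69.2%, beside 50.9% of tested genes), and 36, 34 and 32 with lists 1, 2 and 3 alone (92.3%, 87.2% and 82.1%, beside 86.4%, 77.5% and 68.2% of tested genes).

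Whether the same replicate number marks related libraries is not stated. Deviations of same-numbered libraries correlated by 0.451, 0.0417, -0.136, 0.519 and 0.258 for replicates 1 to 5 in the E9.5 set. At E10.5 they correlated by -0.0299 to 0.106. In the E9.5 set 3 of 5 numbers fitted best with their own, and at E10.5 1 of 3. The main fit did not use the number. A replicate block gave 3698 genes, 6 rises and 9 falls at E9.5 (adding Suz12, Rbbp7, Smarcb1, Smarcd3, Dpf3 and Ruvbl2), 269 genes and 0 members at E10.5, 1377 genes and 6 members for the stage difference, and 9 and 13 paralog pairs with one sign throughout at E9.5 and E10.5.

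Depth limits the low members: Cdk2ap1 rested on 17 to 49 reads per library.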
